A study of Mus musculus with 18 samples.

Results

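The genes described here are Itgae and Itgb7, which encode the αE and β7 chains of the integrin αEβ7. They were taken as every probe of the mouse BeadChip whose annotated symbol is Itgae or Itgb7, each probe read on its own. That gave 6 probes for Itgae and 1 for Itgb7, 7 of the 46237 probes on the array. Itgae was chosen by its measured difference between genotypes in CD4 single-positive thymocytes, and Itgb7 was added as its partner chain. The values of Itgae in the CD4 single-positive arrays, and the genotype difference of both genes there, are therefore given as descriptions without a test.

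RNA was taken from thymocytes sorted from C57Bl/6N mice aged 4 to 6 weeks. The conditional knockout mice (cKO, labelled FoxN1-Gpr177) lost exon 3 of Gpr177, now named Wls, through a Cre driven by FoxN1, and the mice set against them were labelled wt. The FoxN1 promoter is active in epithelial cells of the thymus. The sorted thymocytes were thus not the targeted cells, and Wls probes in them do not check the deletion. Wls (ILMN_2996561) was detected on all 3 arrays of each of the 6 groups. CD8 single-positive (CD8 SP), CD4 single-positive (CD4 SP) and CD4 and CD8 double-positive (DP) thymocytes of each genotype had 3 arrays per group, 18 in all.

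Integrin αEβ7, known on lymphocytes as CD103, is a heterodimer that binds E-cadherin on epithelial cells. The αE chain pairs with β7 only, whereas β7 also pairs with the α4 chain to form a receptor for MAdCAM-1 on mucosal vessels. In the thymus, double-positive cells that pass positive selection become CD4 or CD8 single-positive cells, and mouse CD8 SP thymocytes are known to carry CD103. TGF-β signalling through SMAD proteins raises Itgae transcription in T cells, and the factor Runx3 is reported to act on the gene in the CD8 lineage.

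Itgae lies on mouse chromosome 11, with the kinase gene Haspin nested inside it, and Itgb7 lies on chromosome 15 and overlaps no other gene of the RefSeq table. Itgb7 is the gene here with a promoter in the RefSeq sequence table (GRCm38.p6). Its 250 bases before the transcription start, at chr15:102231936-102232185 on the minus strand, are shown because Itgb7 was at or below the detection limit in DP cells and bright in both single-positive populations. Capitals mark CACCC and its reverse complement GGGTG, the core of KLF and SP sites.
Itgb7 promoter: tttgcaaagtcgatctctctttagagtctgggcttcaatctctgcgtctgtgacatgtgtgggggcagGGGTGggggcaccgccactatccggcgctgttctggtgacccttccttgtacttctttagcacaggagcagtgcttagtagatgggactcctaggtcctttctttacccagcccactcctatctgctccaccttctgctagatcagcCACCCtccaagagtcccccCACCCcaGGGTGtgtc
Motifs were searched on both strands of the 300 bases that reach 50 bases past the start. CACCC had 4 matches, and 57.5% of the 32851 promoters in the table held at least one. The SMAD half-site GTCTG had 2 matches (49.6% of promoters) and the E-box CANNTG had 2 (72.3%). The ETS core GGAAGT had 1 match on the reverse strand at the first base after the start (23.8%). The RUNX core TGTGGT (16.8%) and the TCF/LEF core CTTTGAT (3.73%) had none. These are matches of letters, and most of them are common among promoters of this length.

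Intensities were read as normalized log2 levels after background correction, and a probe was counted as detected where its deposited detection p was under 0.05. A ± after a group mean is the SD of 3 arrays, and a ± after a difference is its standard error. Array medians of the deposited intensity lay between 132.6 and 273.4, and 41.5% to 46.0% of probes were detected per array. Replicate arrays correlated at 0.848 to 0.908. The Cd4 probe ILMN_1217214 averaged 6.82 in CD8 SP cKO and 6.71 in CD8 SP wt arrays, against 7.99 and 7.69 in CD4 SP and 8.35 and 8.46 in DP arrays of cKO and wt. Another Cd4 probe, ILMN_1249663, was detected on no CD8 SP array. The Cd8b1 probe ILMN_2741169 averaged 11.02 in CD8 SP cKO and 10.91 in CD8 SP wt arrays, against 8.37 and 7.87 in CD4 SP and 11.75 and 11.69 in DP arrays of cKO and wt. Another Cd8b1 probe, ILMN_2664929, was detected on 1 of 3 CD4 SP arrays of each genotype. The tested Cd8a probe, ILMN_2935080, was detected on no CD8 SP array, but on 2 DP wt arrays and 1 CD4 SP wt array. At least 1 probe of Cd4 and of Cd8b1 thus stayed above background in the population sorted without that coreceptor.

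On 3 of its 6 probes Itgae was detected on every CD8 SP array of both genotypes and on no DP array, whereas the other 3 probes were also detected in DP cells. The probe with the highest mean level, ILMN_2699898, had deposited intensities of 1218, 973 and 871 on the CD8 SP cKO arrays 1, 2 and 3, and of 1071, 1509 and 814 on the CD8 SP wt arrays. On the DP cKO arrays it read 179, 199 and 127, and on the DP wt arrays 132, 135 and 177. All 6 CD8 SP arrays lay far above all 6 DP arrays, and none of the DP arrays detected the probe.

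On the log2 scale ILMN_2699898 averaged 9.40 ± 0.28 in CD8 SP cKO and 4.60 ± 0.18 in DP cKO arrays. The difference was 4.80 ± 0.25 (limma adjusted p = 4.87e-09), with 4.93, 4.76 and 4.71 on the 3 chips. In wt the probe averaged 9.56 ± 0.37 in CD8 SP and 4.38 ± 0.10 in DP arrays, a difference of 5.17 ± 0.25 (limma adjusted p = 2.15e-09) and of 5.23, 5.53 and 4.77 on the chips. Where no array of a group detected a probe, only a lower limit of the fold is known for that probe, on this background-corrected scale. That limit sets the detected group's mean against the other group with each array raised to the lowest detected level of that array. By it ILMN_2699898 was at least 23-fold higher in CD8 SP than in DP cells of cKO and at least 26.3-fold higher in wt. The size moved with the background correction: without one (quantile normalization) the difference was 2.18 in cKO and 2.45 in wt, with both calls kept. Each group sat at 1 fixed position of every chip, so position and group cannot be told apart for this or any other comparison. In RNA from bulk sorted cells, fewer cells with the transcript and less transcript per cell cannot be told apart either.

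**Figure D1:**
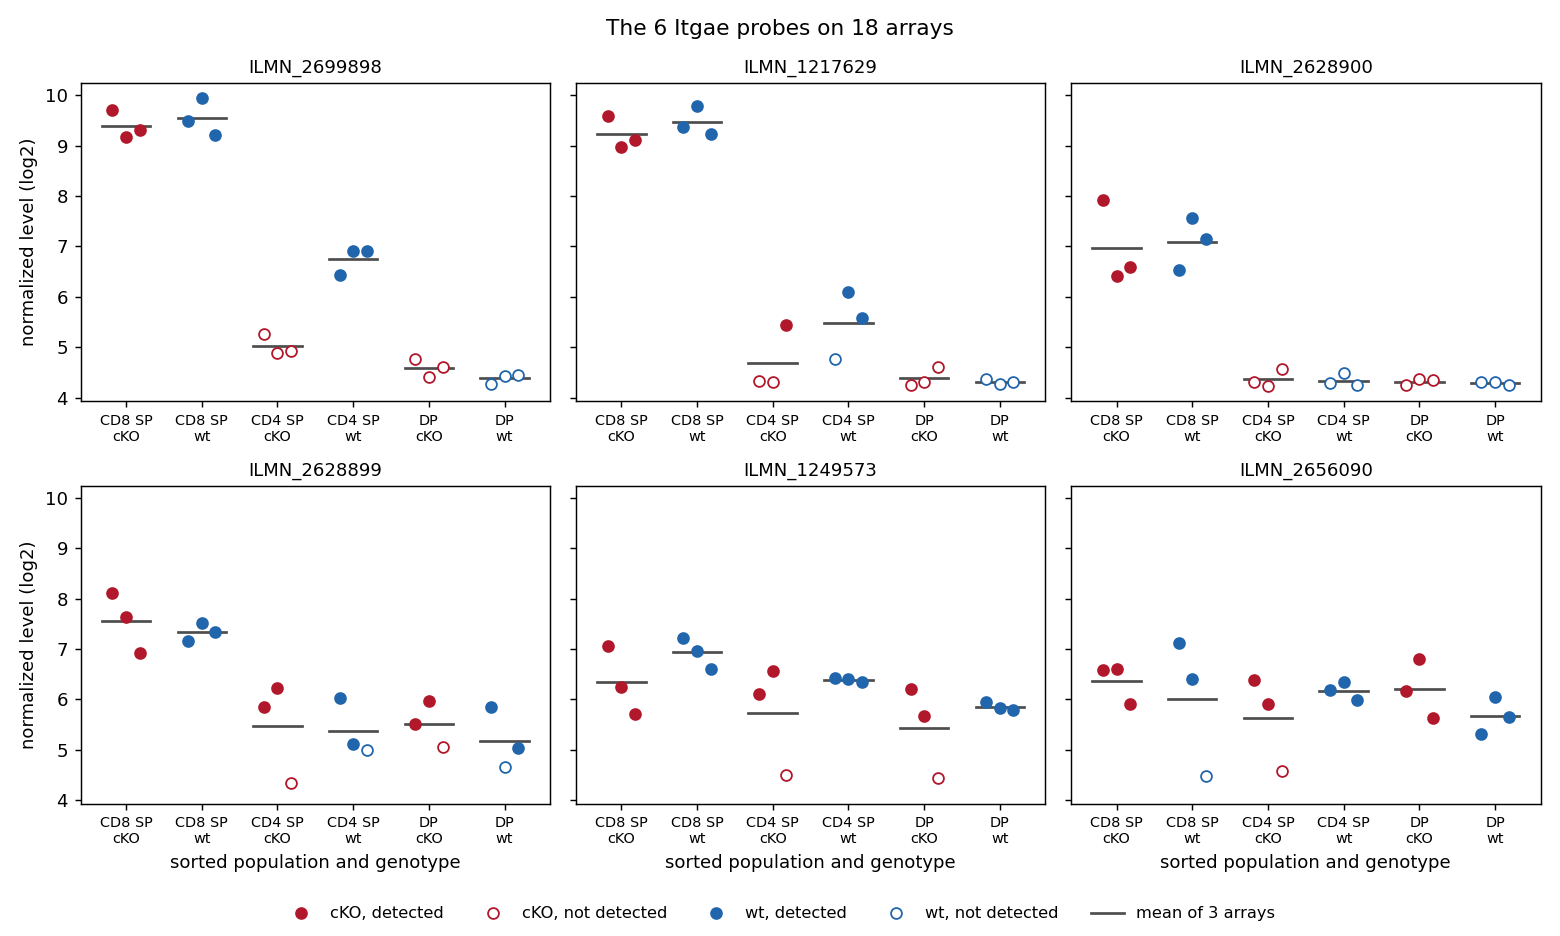
Normalized log2 level of each of the 6 Itgae probes on the 18 arrays, by population and genotype, with filled points where the probe was detected, open points where it was not, and a bar at the mean of 3 arrays. The probes ILMN_2699898 and ILMN_1217629 stood at 8.97 or more on all 6 CD8 SP arrays, whereas ILMN_2656090 did not separate the populations.

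The other Itgae probes gave the same picture in part. ILMN_1217629 averaged 9.23 ± 0.33 in CD8 SP cKO and 9.47 ± 0.29 in CD8 SP wt arrays, and no DP array detected it. Its CD8 SP minus DP difference was 4.84 ± 0.34 in cKO (limma adjusted p = 2.05e-07, at least 20.4-fold) and 5.16 ± 0.34 in wt (limma adjusted p = 7.73e-08, at least 24.7-fold). ILMN_2628900 was detected on the 6 CD8 SP arrays and on no other, with means of 6.98 ± 0.82 in cKO and 7.09 ± 0.52 in wt. It was at least 4.30-fold higher in CD8 SP than in DP cells of cKO and at least 4.74-fold higher in wt. It passed the detection filter only through CD8 SP, the population where it is high, so these values are a description.

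ILMN_2628899 was dimmer and less restricted, with 2 of 3 arrays detecting it in each CD4 SP and DP group. Its CD8 SP minus DP difference was 2.06 ± 0.46 in cKO (limma adjusted p = 0.00968) and 2.15 ± 0.46 in wt (limma adjusted p = 0.00736). The cKO call ended without DP cKO array 3 (1.83, limma adjusted p = 0.0524). ILMN_1249573 differed by 0.90 ± 0.48 in cKO (limma adjusted p = 0.356) and by 1.08 ± 0.48 in wt (limma adjusted p = 0.195), and the wt difference passed the threshold without the 3 cKO arrays of number 3 (1.09, limma adjusted p = 0.0264). ILMN_2656090 differed by 0.17 ± 0.55 in cKO (limma adjusted p = 0.931) and by 0.34 ± 0.55 in wt (limma adjusted p = 0.767). Neither of these last 2 probes separated CD8 SP from DP cells at the threshold.

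ILMN_2699898, ILMN_1217629, ILMN_2628899 and the Itgb7 probe were thus called higher in CD8 SP than in DP cells of both genotypes. Of all 26676 tested probes, 2.74% were called higher in cKO and 2.88% in wt. ILMN_2628900 is left out here, since only CD8 SP carried it past the detection filter. Over the 18 arrays ILMN_2699898 correlated with the other Itgae probes at 0.973 (ILMN_1217629), 0.917 (ILMN_2628900), 0.822 (ILMN_2628899), 0.615 (ILMN_1249573) and 0.26 (ILMN_2656090). These coefficients describe arrays that fall into 3 populations and carry no test. The split did not follow the annotated transcript: ILMN_2699898, ILMN_1217629 and ILMN_1249573 were assigned to an accession that the RefSeq table lists for Itgae, and ILMN_2628900, ILMN_2628899 and ILMN_2656090 to an accession that it does not list. Which transcript each of these last 3 probes reads was not tested.

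Haspin, the kinase gene nested inside Itgae and named here for that position alone, had 1 probe (ILMN_1235363) with means of 5.99 in CD8 SP cKO and 6.06 in CD8 SP wt arrays, all 6 detected. In CD4 SP arrays of cKO and wt it stood at 4.44 and 4.59, with none detected. In DP arrays it stood at 4.58 in cKO, with none detected, and at 5.51 in wt, with 2 detected. Its own level was therefore also measurable in the CD8 SP arrays where Itgae was bright.

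In CD4 SP cells Itgae was dim, and its level differed between the genotypes on the probe that chose it. The deposited intensities of ILMN_2699898 were 246, 248 and 188 on CD4 SP cKO arrays 1, 2 and 3, against 218, 264 and 265 on the CD4 SP wt arrays. The groups overlapped on that scale, where no difference in brightness between arrays is removed. The medians of all probes on these arrays averaged 220.1 in CD4 SP cKO and 172.7 in CD4 SP wt.

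After normalization the same probe stood at 5.27, 4.89 and 4.93 in CD4 SP cKO, against 6.43, 6.91 and 6.91 in CD4 SP wt. The groups no longer overlapped, and cKO was lower on every chip, by 1.16, 2.03 and 1.99. The authors' own normalized intensities were 217, 203 and 202 in CD4 SP cKO and 256, 291 and 286 in CD4 SP wt, also without overlap. The deposited detection p was 0.0652, 0.232 and 0.0569 on the cKO arrays, above the detection threshold on each of them. On the wt arrays it was 1.01e-06, 9e-09 and 7.09e-08. The probe was thus detected on 0 of 3 cKO and 3 of 3 wt arrays.

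The group means were 5.03 ± 0.21 in CD4 SP cKO and 6.75 ± 0.28 in CD4 SP wt, a difference of -1.72 ± 0.25. The cKO arrays were below detection, and the size of this difference depended on how background was handled. The difference was -0.46 with quantile normalization and no background correction, -1.09 with an offset of 50 and -0.42 on the authors' values. Of all tested probes, 5.69% had the 3 cKO values below the 3 wt values in this comparison, and limma called 0% of them (0 of 26676, with 2039 at an unadjusted p under 0.05). Nothing is read from this for the probe, since the comparison chose it.

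**Figure D2:**
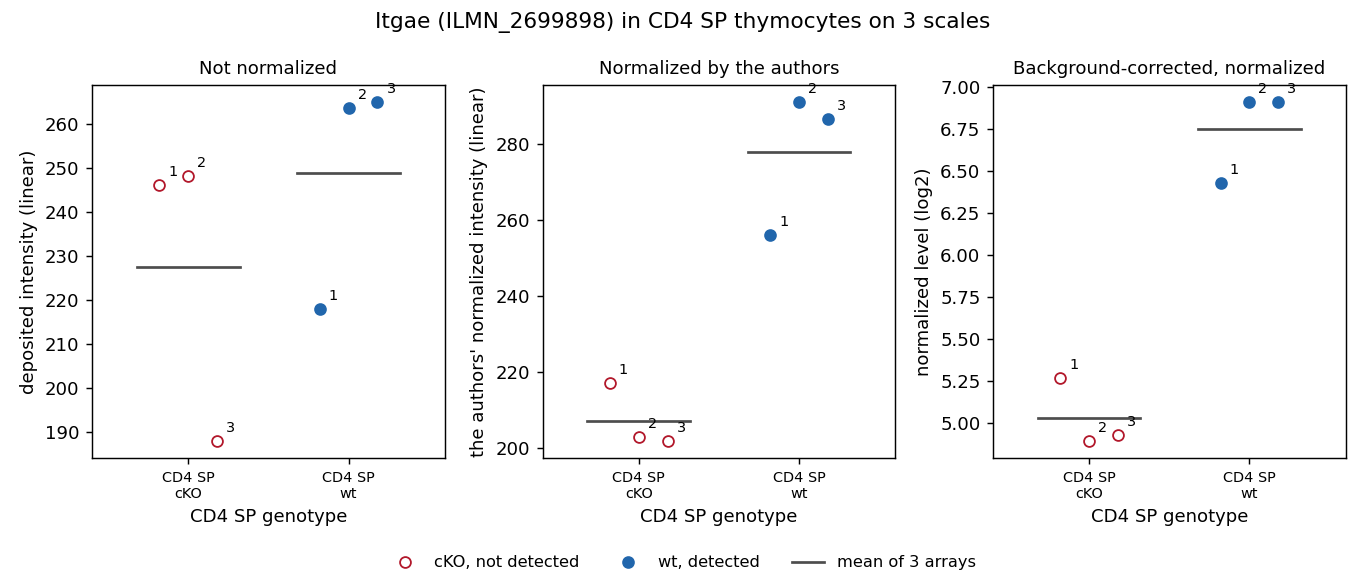
Itgae probe ILMN_2699898 in CD4 SP cKO (left) and CD4 SP wt (right) on 3 scales: deposited intensity, the authors' normalized intensity, and normalized log2 level, with array numbers beside the points and a bar at each mean. The axes do not start at 0. The groups overlap as deposited and are apart on both normalized scales.

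The other Itgae probes in CD4 SP cells were closer to the detection limit. ILMN_1217629 averaged 4.69 ± 0.65 in cKO (1 of 3 arrays detected) and 5.48 ± 0.67 in wt (2 of 3), and the groups overlapped. Its difference was -0.78 ± 0.34, with -0.43, -1.80 and -0.13 on the chips. ILMN_1249573 and ILMN_2656090 gave -0.66 ± 0.48 and -0.55 ± 0.55, both with overlapping groups and both with the largest drop on chip 3. ILMN_2628899 gave 0.10 ± 0.46, and ILMN_2628900 was detected on no CD4 SP array of either genotype. Of the 7 member probes only ILMN_2699898, the probe that this comparison chose, had CD4 SP groups that did not overlap on the log2 scale. The share of all tested probes with the 3 cKO values below the 3 wt values was 5.69%. Nothing is read from this count.

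Regulatory T cells are CD4 cells that can carry CD103, so their markers were read on the same arrays. Of 12 listed genes 8 were measured, and their normalized levels were summed on a linear scale. The sum ran from 953.3 to 1045.9 in CD4 SP cKO and from 1047.8 to 1158.3 in CD4 SP wt. The ranges did not overlap, but their nearest arrays stood at 1045.9 and 1047.8. Of all tested probes 5.69% had the 3 cKO values below the 3 wt values here. Foxp3, the lineage factor of these cells, averaged 8.02 in CD4 SP cKO and 7.88 in CD4 SP wt, and Gpr83 averaged 6.98 and 6.52. Tnfrsf18, a receptor these cells carry, averaged 6.37 in cKO and 7.47 in wt. Ikzf2, Tnfrsf4, Tnfrsf9, Capg and Klrg1 also averaged lower in cKO. None of the 8 genes was called between genotypes in CD4 SP cells by limma, with 1 at an unadjusted p under 0.05, and Il2ra and Ctla4 were detected on too few arrays to be tested. The Foxp3 probe was also detected on all DP and CD8 SP arrays, with means of 8.07 and 8.21 in CD8 SP cKO and wt. The part of regulatory T cells in the Itgae difference was not tested.

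Other cells that can carry αEβ7 left values as follows. Of 13 genes of gamma delta and innate-like T cells 7 were measured, with sums of 615.6 to 731.0 in CD8 SP cKO and 806.3 to 1076.4 in CD8 SP wt. In CD4 SP arrays their sums were 444.3 to 526.7 in cKO and 423.2 to 722.7 in wt, and in DP arrays 315.6 to 484.3 in cKO and 331.6 to 430.9 in wt. Xcl1, a chemokine of such cells and of CD8 cells, was in this sum, at 7.66 in CD8 SP cKO and 8.38 in CD8 SP wt. Klrb1c, Cxcr6 and Tyrobp also averaged lower in CD8 SP cKO than in CD8 SP wt, whereas Sox13, Blk and Il2rb averaged higher. None of these 7 genes was called between genotypes in CD8 SP cells by limma, with 1 at an unadjusted p under 0.05. Of 16 dendritic cell and macrophage genes 7 were measured, with sums of 704.2 to 828.1 in CD8 SP cKO and 612.3 to 795.5 in CD8 SP wt, against 779.8 to 989.9 in DP cKO and 854.3 to 957.7 in DP wt. Xcr1, Batf3, H2-Aa, H2-Ab1, Csf1r, Lyz2 and Adgre1, which define these cells, were below the detection filter. The part of gamma delta and innate-like cells in the CD8 SP level of Itgae was not tested.

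In CD8 SP cells, where Itgae was brightest, no difference between genotypes passed the threshold. ILMN_2699898 differed by -0.16 ± 0.25 between cKO and wt (limma adjusted p = 1), with a 95% interval of -0.69 to 0.37 and chip values of 0.20, -0.78 and 0.10. Its sign turned without CD8 SP wt array 2 (0.04). ILMN_1217629 differed by -0.24 ± 0.34, with an interval of -0.97 to 0.49. None of the 7 member probes was called, and neither was any other tested probe (0% by limma, with 1213 of 26676 at an unadjusted p under 0.05).

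In DP cells 3 Itgae probes were detected on no array of either genotype. The other 3 Itgae probes and Itgb7 gave differences of -0.42 to 0.53 between cKO and wt, none of them called. Of all tested probes 0.00375% (1 probe) was called there. No test of unequal genotype differences in CD8 SP and DP cells is given for ILMN_2699898, since no DP array detected it. Between CD4 SP and CD8 SP its genotype differences stood -1.56 ± 0.35 apart (CD4 SP minus CD8 SP), without a test since the CD4 SP arrays chose the gene. The CD4 SP cKO arrays were below detection, and the CD4 SP part of this value moved with the background handling, as given above.

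**Figure D3:**
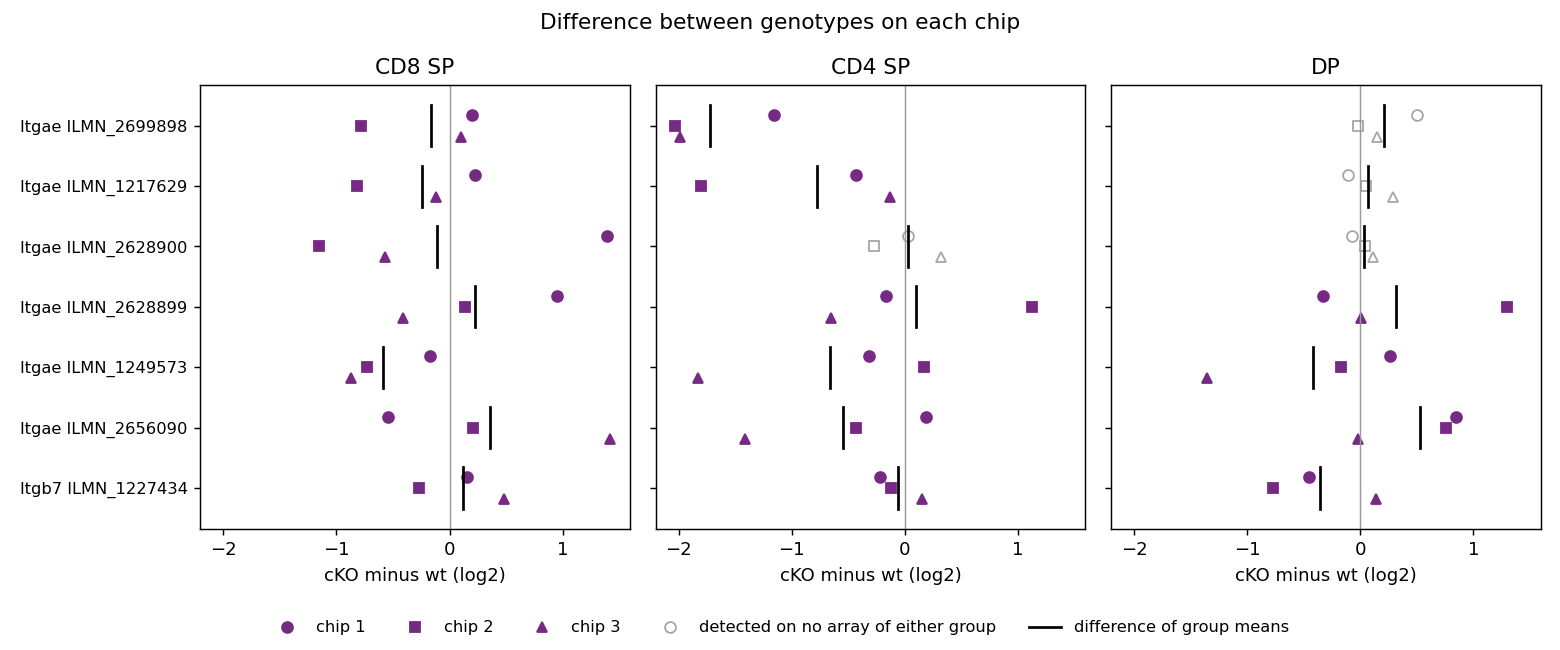
Difference in normalized log2 level, cKO minus wt, of the 7 member probes on each of the 3 chips (circle, square, triangle), in CD8 SP, CD4 SP and DP cells. The black bar is the difference of group means and open grey points mark probes detected on no array of either group; ILMN_2699898 in CD4 SP, where the cKO arrays were below detection, lay below 0 on all 3 chips.

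Itgae levels were ordered CD8 SP, CD4 SP and DP in wt on ILMN_2699898. CD8 SP lay above CD4 SP by 4.37 in cKO (at least 20.5-fold) and by 2.81 ± 0.25 in wt. CD4 SP lay above DP by 2.37 ± 0.25 in wt. In cKO both CD4 SP and DP were below detection, so they have no order. These 2 steps use the CD4 SP arrays and are described without a test.

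Itgb7 had another pattern: it was bright in both single-positive populations and at or below detection in DP cells. Its probe (ILMN_1227434) had deposited intensities of 804, 777 and 773 on CD4 SP cKO arrays 1, 2 and 3 and of 882, 812 and 674 on the CD4 SP wt arrays. On CD8 SP cKO arrays it read 956, 924 and 825, and on CD8 SP wt arrays 855, 1066 and 631. On DP cKO arrays it read 164, 175 and 127, and on DP wt arrays 163, 156 and 177. Every single-positive array stood clear of every DP array, and DP wt array 2 was the one DP array that detected the probe.

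The normalized means of Itgb7 were 9.30 ± 0.16 in CD4 SP cKO and 4.45 ± 0.16 in DP cKO. The CD4 SP minus DP difference was 4.85 ± 0.23 in cKO (limma adjusted p = 1.25e-09), at least 21.5-fold, where 2.09% of tested probes were called higher. In wt the means were 9.36 ± 0.12 in CD4 SP and 4.81 ± 0.31 in DP, and the difference was 4.56 ± 0.23 (limma adjusted p = 1.78e-09), where 2.74% were called higher. CD8 SP averaged 9.17 ± 0.09 in cKO and lay above DP by 4.73 ± 0.23 (limma adjusted p = 3.36e-09), at least 19.7-fold. CD8 SP averaged 9.05 ± 0.32 in wt and lay above DP by 4.25 ± 0.23 (limma adjusted p = 6.62e-09). The 4 differences had the same sign on all 3 chips and passed the threshold under every alternative run.

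Itgb7 levels in CD8 SP and CD4 SP cells did not differ beyond their spread. CD8 SP minus CD4 SP was -0.12 ± 0.23 in cKO (limma adjusted p = 0.894, 95% interval -0.61 to 0.37) and -0.31 ± 0.23 in wt (limma adjusted p = 0.591, interval -0.80 to 0.18). In these comparisons 3.92% of tested probes were called in cKO and 3.42% in wt. Between genotypes Itgb7 differed by 0.12 ± 0.23 in CD8 SP (limma adjusted p = 1, interval -0.37 to 0.61) and by -0.36 ± 0.23 in DP (limma adjusted p = 0.711). In CD4 SP the difference was -0.06 ± 0.23, given without a test. The CD4 SP groups of Itgb7 overlapped, with chip values of -0.22, -0.12 and 0.15. The difference of the genotype differences in CD8 SP and DP was 0.48 ± 0.33 (limma adjusted p = 0.959). The DP arrays behind this value and behind the DP genotype difference were at or below detection. The probe was detected on 0 of 3 DP cKO and 1 of 3 DP wt arrays.

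**Figure D4:**
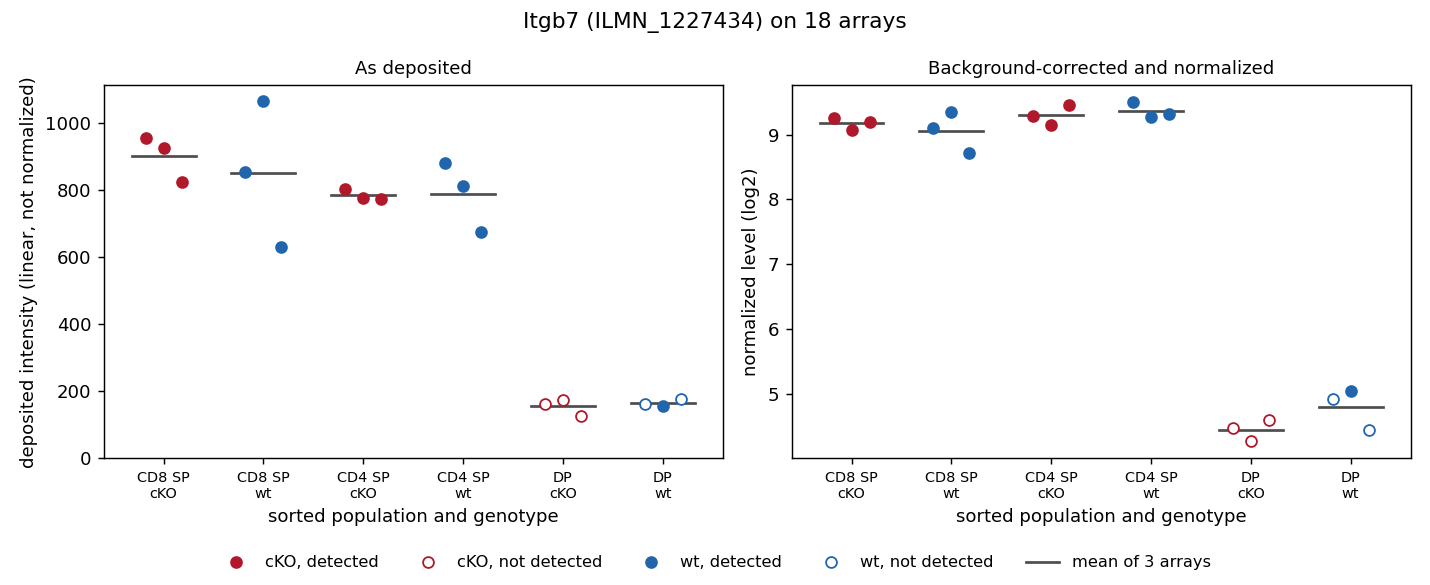
Itgb7 probe ILMN_1227434 on the 18 arrays as deposited intensity (left, linear axis from 0) and as normalized log2 level (right), by population and genotype, with filled points where detected and a bar at the mean of 3 arrays. All 12 CD4 SP and CD8 SP arrays read 631 or more as deposited, and all 6 DP arrays read 177 or less.

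The other chains that pair with these 2, and their ligands, showed little of this pattern. Itga4, the α4 chain, averaged 7.60 to 8.18 across the 6 groups, and Itgb1, a partner of α4 and of many α chains, averaged 8.64 or more in each of them. Neither was called in any of the 9 comparisons. Of the 6 measured partners and ligands beside Itgae and Itgb7, 1 was called: Cdh1, which encodes E-cadherin itself, on ILMN_2628629, in CD8 SP against DP cells of wt, where 2.88% of all tested probes were called higher. It averaged 8.25 ± 0.49 in CD8 SP wt and 5.93 ± 0.39 in DP wt, a difference of 2.32 ± 0.52 (limma adjusted p = 0.01), and the call ended without CD8 SP wt array 3 (limma adjusted p = 0.052). In cKO it averaged 6.44 ± 0.86 in CD8 SP and 5.98 ± 0.65 in DP, a difference of 0.47 ± 0.52 (limma adjusted p = 0.748). Within CD8 SP it lay at -1.80 ± 0.52 in cKO relative to wt, without overlap but not past the threshold (limma adjusted p = 0.933), where 4.36% of tested probes had all cKO values below all wt values. Another Cdh1 probe, ILMN_1227162, gave 0.60 for CD8 SP minus DP in wt (limma adjusted p = 0.452) and 0.19 for cKO minus wt in CD8 SP.

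Among the other integrin chains, 14 of 24 genes were measured. In CD8 SP against DP cells 1 was lower and 0 higher in each genotype, with a median difference of -0.06 in cKO and 0.10 in wt, against 0.01 and 0.09 over all tested probes. The lower one was Itga6, the laminin-binding α6 chain, at -1.43 ± 0.26 in cKO (limma adjusted p = 0.00249) and -1.05 ± 0.26 in wt (limma adjusted p = 0.0190). The wt call ended without any one of 4 arrays, DP wt 1 or 2 or CD8 SP wt 1 or 3 (limma adjusted p = 0.0533 to 0.0792). The other 2 tested Itga6 probes were not called in either genotype, at -1.24 and -0.96 in cKO and -1.12 and -0.38 in wt. Of 15 measured genes of integrin activation, which switch integrins to the ligand-binding form, 0 were called in either direction in CD8 SP against DP cells of either genotype by limma, with 1 in cKO and 0 in wt at an unadjusted p under 0.05. The background shares of lower calls were 4.19% in cKO and 5.48% in wt.

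TGF-β receptors, SMADs and their regulators had 15 of 20 genes measured. Tgfbr2, the ligand-binding receptor chain, rose in CD4 SP cells. It averaged 8.93 ± 0.08 in CD4 SP cKO and 6.86 ± 0.68 in DP cKO (2.07 ± 0.29, limma adjusted p = 2.33e-04), and 8.84 ± 0.21 in CD4 SP wt and 6.52 ± 0.36 in DP wt (2.32 ± 0.29, limma adjusted p = 6.71e-05). In CD8 SP against DP it differed by 0.90 ± 0.29 in cKO (limma adjusted p = 0.0821) and rose by 1.47 ± 0.29 in wt (limma adjusted p = 0.00467). Another Tgfbr2 probe, ILMN_2777917, gave 1.12 and 1.17 for CD4 SP minus DP in cKO and wt, both called (limma adjusted p = 0.0247 and 0.0157). ILMN_1242086 gave 0.83 and 0.70, not called. For CD8 SP minus DP in wt neither was called. ILMN_2777917 gave 0.68 there (limma adjusted p = 0.151) and ILMN_1242086 gave 0.17 (limma adjusted p = 0.895).

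Tgfbr1, the signalling receptor chain, stayed between 7.75 and 8.20 in all groups and was called in no comparison. Skil, a repressor of SMAD-driven transcription, rose in CD4 SP over DP cells by 1.97 in cKO (limma adjusted p = 0.0114) and by 2.44 ± 0.44 in wt (limma adjusted p = 0.00186). Its cKO call ended without DP cKO array 2 (limma adjusted p = 0.0522), with only the groups compared (0.0875) and without number 3 of all cKO groups (0.0631). Another Skil probe, ILMN_2443990, gave 2.19 in cKO and 2.09 in wt, both called (limma adjusted p = 0.00507 and 0.00631). Of the 15 genes 3 were higher and 0 lower in CD4 SP than in DP cells of each genotype, where 2.09% of all tested probes were called higher in cKO and 2.74% in wt. In CD8 SP against DP cells 0 were called in cKO by limma, with 1 at an unadjusted p under 0.05. In wt 1, Tgfbr2 on its brightest probe alone, was higher, where 2.88% of all tested probes were called higher. Smad3, a receptor-activated SMAD, differed in CD4 SP minus DP by 1.13 ± 0.25 in cKO (limma adjusted p = 0.0122) and by 0.66 ± 0.25 in wt (limma adjusted p = 0.160). The cKO call ended without DP cKO array 2 or CD4 SP cKO array 1 (limma adjusted p = 0.075 and 0.0697), with median scaling (0.0576), with only the groups compared (0.0942) and without number 3 of all cKO groups (0.0597). The other tested Smad3 probe, ILMN_2938893, gave 0.71 in cKO and 0.68 in wt, not called (limma adjusted p = 0.144 and 0.136). Smad7, an inhibitory SMAD, was below the detection filter.

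Of 15 transcription factors reported to act on Itgae 9 were measured, and Runx3 was below the detection filter. In CD8 SP against DP cells 0 were higher and 2 lower in cKO, where 2.74% of all tested probes were called higher and 4.19% lower. In wt 2 were lower, where 2.88% of all tested probes were called higher and 5.48% lower. Eomes, at 5.92 ± 1.16 in CD8 SP wt, is left out of the wt count. No DP or CD4 SP array detected it, so it passed the detection filter only through CD8 SP, where it is high. Its level is given as a description. Satb1 and Bcl11b, both DNA-binding regulators of thymocyte maturation, were the lower ones, at -0.94 and -1 in cKO and at -0.94 and -0.88 in wt. Each of these 4 calls ended when only the arrays of the groups compared entered the fit (limma adjusted p = 0.0598 to 0.0829), and the 2 cKO calls ended with median scaling (limma adjusted p = 0.0545 and 0.0914). The Bcl11b call in wt also ended without DP wt array 1 (limma adjusted p = 0.0511). The other 2 Satb1 probes fell further, ILMN_1240428 by 3.01 in cKO and 2.89 in wt and ILMN_2561103 by 2.53 in cKO and 1.96 in wt, and 2 of the other 3 Bcl11b probes were called lower in both genotypes. Lef1, a TCF family factor, rose in CD4 SP over DP cells by 1.43 ± 0.20 in cKO (limma adjusted p = 2.44e-04) and by 1.09 ± 0.20 in wt (limma adjusted p = 0.00235). Of its other 3 tested probes, ILMN_1239469 was called in both genotypes (1.32 in cKO and 1.31 in wt). ILMN_2648475 gave 0.75 in cKO (limma adjusted p = 0.056) and 0.81 in wt (limma adjusted p = 0.0305). ILMN_1233230 was called in neither, at 0.22 in cKO (limma adjusted p = 0.801) and 0.33 in wt (limma adjusted p = 0.542).

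Receptors for homing and epithelial contact had 13 of 15 genes measured. In CD8 SP against DP cells 2 were higher and 0 lower in cKO, and 2 higher and 1 lower in wt. Of all tested probes 2.74% were called higher and 4.19% lower there in cKO, and 2.88% and 5.48% in wt. Cdh1, described above, was among the 2 higher in wt. In CD4 SP against DP cells 1 was higher and 1 lower in cKO and 2 were higher and 1 lower in wt. The shares of all tested probes there were 2.09% higher and 2.64% lower in cKO, and 2.74% and 3.29% in wt. Ccr7, the receptor that guides single-positive cells to the medulla, rose in CD8 SP over DP cells by 3.36 ± 0.33 in cKO (limma adjusted p = 8.34e-06) and by 3.47 ± 0.33 in wt (limma adjusted p = 6.37e-06). In CD4 SP over DP cells it rose by 4.17 ± 0.33 in cKO and by 4.55 ± 0.33 in wt (limma adjusted p = 3.39e-07 and 1.13e-07). Ccr7 was thus, like Itgb7, bright in both single-positive populations. Klf2, a factor of thymocyte egress, was detected on no DP array. In CD4 SP it differed from DP by 0.92 ± 0.29 in cKO (limma adjusted p = 0.0847). It rose there by 1.83 ± 0.29 in wt (limma adjusted p = 5.05e-04, at least 2.30-fold). In CD8 SP cKO, with 1 of 3 arrays detected, it lay above DP by 1.25 (limma adjusted p = 0.0116). That call ended without CD8 SP cKO array 1 (limma adjusted p = 0.0657), with an offset of 50 (0.0516) and with only the groups compared (0.0793).

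Ccr9, a receptor for the thymic and gut chemokine Ccl25, moved the other way. In CD8 SP against DP cells it differed by -1.32 ± 0.39 in cKO (limma adjusted p = 0.052) and fell in wt by 2.32 on the log2 scale (limma adjusted p = 0.00133), where no CD8 SP array detected it, to at least 3.85-fold lower. Cxcr4, which holds immature thymocytes in the cortex, fell in CD4 SP relative to DP cells by 1.86 in cKO and by 2.21 in wt (limma adjusted p = 2.37e-04 and 3.81e-05), where 2.64% of tested probes were called lower in cKO and 3.29% in wt. In CD8 SP minus DP it stood at -0.81 in cKO and -0.85 in wt, not called. Between CD8 SP and CD4 SP cells 3 of the 14 other integrin chains were lower and 0 higher in each genotype, against 1.79% called lower and 2.14% higher of all tested probes in cKO and 1.77% and 1.65% in wt. They were Itgal (-1.01), Itgb2 (-1.20) and Itgb3 (-1.20) in cKO and Itga6 (-1.18), Itgal (-0.95) and Itgb2 (-1.38) in wt. Itgal and Itgb2 encode the chains of LFA-1, which binds ICAM-1. Each of these 6 calls ended when a single array was left out, for at least 2 choices of that array (limma adjusted p up to 0.224 in such fits).

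Over these 6 lists none of the measured genes was called between cKO and wt in any population by limma, with at most 2 genes of a list at an unadjusted p under 0.05 in a population.

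**Figure D5:**
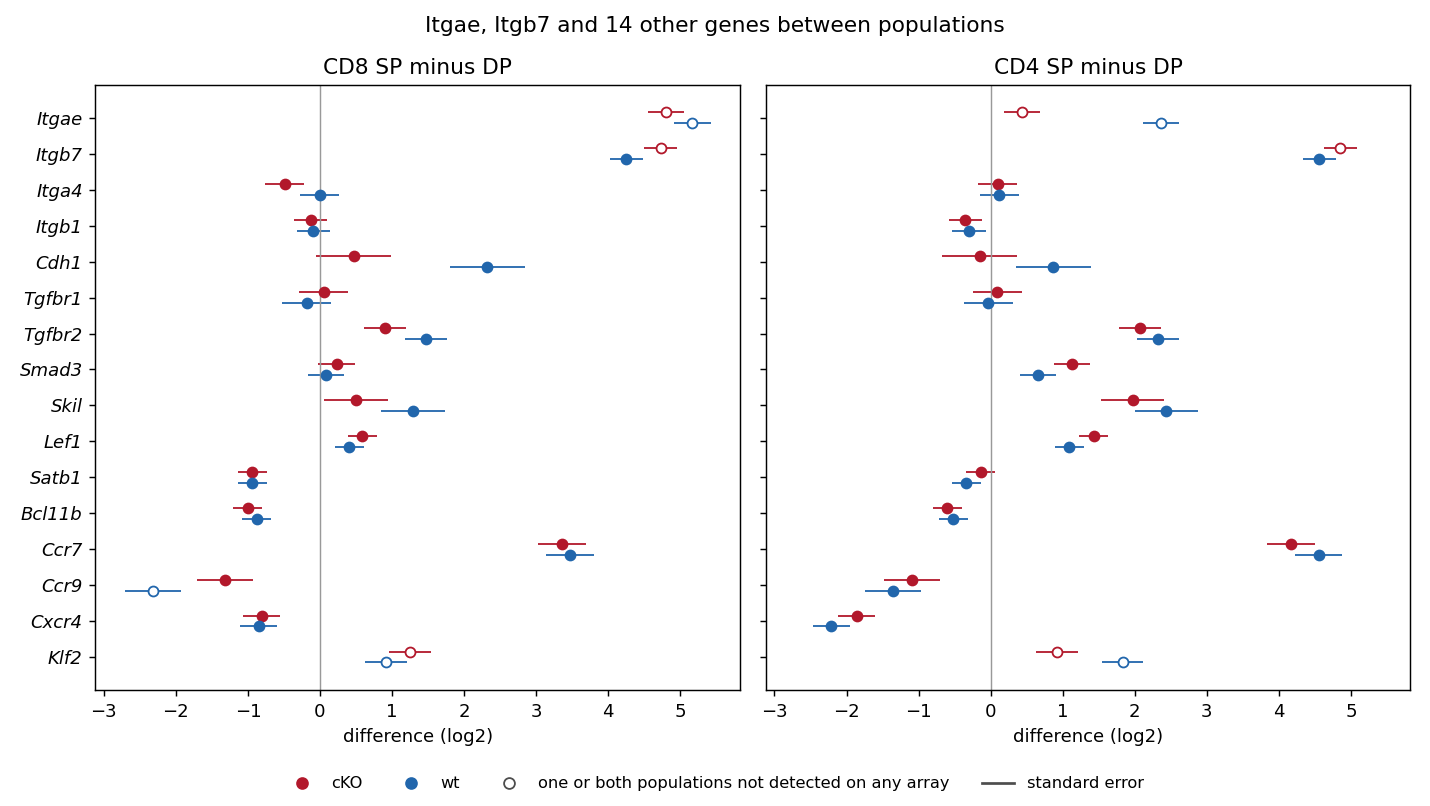
Difference in normalized log2 level between CD8 SP and DP (left) and CD4 SP and DP (right) in cKO and wt for Itgae (ILMN_2699898), Itgb7 and 14 other genes, with standard errors; open points mark a gene that no array of at least one population detected. Itgb7 and Ccr7 were high in both panels, and Itgae was high in CD8 SP.

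The genes whose pattern over the 18 arrays was most like that of Itgae were those with the highest Pearson correlation with ILMN_2699898. They were Npm1 (0.944) and Nop58 (0.939), which act in nucleoli, and Nkg7 (0.940), a cytotoxic granule gene. Hprt (0.938), of purine salvage, and Hspd1 (0.936), a mitochondrial chaperone, followed. Npm1 was bright in every group, from 10.06 in DP cKO to 11.33 in CD8 SP wt. Nop58, Hprt and Hspd1 averaged 7.72 or more in every group, whereas no DP array detected ILMN_2699898. Nkg7, like ILMN_2699898, was brightest in CD8 SP, at 8.18 in cKO and 8.32 in wt. It stood at 4.73 and 4.67 in CD4 SP and at 4.31 and 4.40 in DP arrays of cKO and wt. ILMN_2699898 differed from it in CD4 SP wt, where it averaged 6.75 and was detected on all 3 arrays. For Itgb7 the most alike genes were Ifi213 (0.993) and Ifi27l2a (0.986), both interferon-stimulated, and Ccnd2 (0.992), a cyclin. H2-K1 and H2-D1 (both 0.984), the class I major histocompatibility genes, followed. Ccnd2 stood at 9.06 in CD8 SP cKO and 9.31 in CD8 SP wt, against 4.44 in DP cKO and 4.29 in DP wt. The arrays share populations, chips and positions, so these coefficients rank likeness only. ILMN_2699898 and Itgb7 correlated with each other at 0.666.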

How the data were processed

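Biotin-labelled cRNA from 200 ng of RNA was hybridized to Illumina mouse BeadChips, per the labels' protocols. The authors deposited an unnormalized mean intensity and a detection p-value for every probe of every array; the sources used here do not state how the p-value was computed. The deposited series matrix holds an intensity the authors normalized between arrays, by an unstated method, and served as an alternative.

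Background was estimated from those p-values, and quantile-normalized log2 values were obtained with neqc (offset 16; limma 3.58.1, R 4.3.3; figures with matplotlib 3.10.9). Probes with detection p under 0.05 on at least 3 of 18 arrays were tested, 26676 of 46237. Symbols came from the array's annotation (1 symbol for 35784 probes, none for 10453). One linear model held a mean for each of the 6 groups (12 residual degrees of freedom). Moderated limma p-values were adjusted by Benjamini-Hochberg over the whole set of tested probes (threshold 0.05), and the script was tested on simulated data. No p is given where a comparison chose the members or where neither group was detected.

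Groups and numbers come from the labels. Per the file headers the numbers 1 to 3 are BeadChips that each hold all 6 groups, which pairs the arrays; residuals of same-number arrays correlated at -0.149 to 0.314 (median 0.0605, 27 pairs). The labels do not say whether replicates were separate mice, so p-values may measure technical spread. The number of arrays limits the precision.

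The members and gene lists were chosen with earlier results of these data known. Named genes are the members, list genes past the threshold (at most 4 a list and comparison, plus 9 fixed genes), and the 5 genes most correlated with each member. For a gene with several probes, the brightest tested one (mean log2 value) stands for it. List genes whose call ended in the alternatives are mostly counted, not named. The lists of B cells (2 of 7 genes measured), thymic epithelium and stroma (6 of 12) and erythroid cells (1 of 6) had 0 genes called in any comparison by limma, with at most 1 a list at an unadjusted p under 0.05.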

Additional observations from a re-analysis of the deposited data

How the results depend on the processing

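Each member result was recomputed under 28 alternatives, 18 of which left out 1 array. The CD8 SP against DP calls of ILMN_2699898 held in all of them, as did the calls of Itgb7 between single-positive and DP cells. Without background correction (quantile normalization) the ILMN_2699898 differences were -0.46 for cKO minus wt in CD4 SP, 0.73 for CD4 SP minus DP in wt, and 2.04 and 1.71 for CD8 SP minus CD4 SP in cKO and wt. With an offset of 50 they were -1.09, 1.37, 3.41 and 2.47, and on the authors' values -0.42, 0.71, 2.01 and 1.74. Median scaling gave 2.14 for CD4 SP minus DP in wt, and for Itgb7 -0.30 for cKO minus wt in CD4 SP and 0.03, with the sign turned, for CD8 SP minus CD4 SP in cKO (limma adjusted p = 0.989).

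Leaving out 1 array moved cKO minus wt in CD8 SP between -0.33 and 0.04 for ILMN_2699898, -0.05 and 0.27 for Itgb7, -0.05 and 0.53 for ILMN_2628899, -0.59 and 0.17 for ILMN_2628900, and -0.40 and 0.92 for ILMN_2656090. It moved cKO minus wt in DP between -0.80 and 0.08 for ILMN_1249573. It moved CD8 SP minus DP for ILMN_2656090 between -0.11 and 0.47 in cKO and between -0.22 and 1.10 in wt. Dropping number 3 of all cKO groups turned the sign for ILMN_1249573 in DP (0.08) and ILMN_2628900 in CD8 SP (0.08). None of these differences was called in any setting. The cause of the changes was not tested.

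With the replicate number as a block, no member call changed; among list genes 1 of 44 calls ended, Itgb3 in CD8 SP minus CD4 SP in cKO (limma adjusted p = 0.0556). Of the 44 calls 16 held in every alternative, 24 ended with only the groups compared, 13 with median scaling, 14 when number 3 of all cKO groups was dropped and 25 without some single array.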
